A study of Mus musculus with 16 samples.

Results

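Tuft cells are rare chemosensory cells of the intestinal epithelium, and 9 genes of their identity and of their eicosanoid synthesis were examined here in all 45513 genes counted: *Pou2f3*, *Dclk1*, *Trpm5*, *Avil*, *Sh2d6*, *Il25*, *Alox5*, *Alox5ap* and *Ptgs1*. They were listed by name as tuft cell genes, with earlier results of these data known. The libraries came from EpCAM+ live cells of the small intestine of 8 mice, and each mouse gave 1 tdTom+ and 1 tdTom- library, so the 16 libraries form 8 pairs. All mice were adult *Atoh1*(WT)CreERT2 animals with a *R26R*tdTom reporter on a C57BL/6 background, and the tdTom- cells of the comparison carried the same alleles and came from the same treated animals. The inducible recombinase CreERT2 stands downstream of the *Atoh1* coding sequence at its own locus, so the red label marks cells that expressed *Atoh1* while tamoxifen acted, together with their descendants. Tamoxifen was given at 1 mg per day for 3 days in a row per the labels. The methods give the same schedule for mice used to define the secretory signature, which was the comparison of tdTom+ with tdTom- cells. Another passage of the methods gives a different schedule for sequenced samples.

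Tuft cells sense luminal parasites and metabolites through a taste-like cascade in which a G protein and phospholipase C release calcium, and the calcium opens the channel Trpm5. POU2F3 is the transcription factor without which the lineage does not form. Activated tuft cells release interleukin 25 and, by way of 5-lipoxygenase and cyclooxygenase, leukotrienes and prostaglandins, which act on immune cells of the lamina propria. Goblet, Paneth and enteroendocrine cells depend on *Atoh1*, whereas the dependence of tuft cells on it is debated. The authors reported that tuft cells stained for DCLK1 were not labelled soon after a single pulse of tamoxifen. That is a result on protein, whereas the labels of these libraries give tamoxifen on 3 days in a row. The comparison shows in which fraction the tuft cell genes had the higher level relative to the rest of the library. It does not show how tuft cells were divided between labelled and unlabelled cells.

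Total counts ranged from 17116405 to 25323567 per library. Beside the tuft cell genes, all 8 goblet, all 8 Paneth and all 8 enteroendocrine markers were higher and all 8 absorptive markers lower in tdTom+ cells, while 4 of 8 stem markers were higher and none of 8 proliferation markers passed the test in edgeR (0 in DESeq2, and 0 higher and 1 lower at an unadjusted p under 0.05). Of 8 markers of neurons and glia 3 were tested, 2 of them were higher, and *Sox10* was at 0 in every library. Libraries of mice 7 and 8 stood apart from the others. Their tdTom- libraries had summed lymphocyte markers of 137 and 149 CPM (read count scaled to the library's total), against 11.6 to 39.8 CPM in the other 6 tdTom- libraries. The tdTom- library of mouse 7 also had the lowest summed absorptive markers and the highest summed stem markers of its fraction. Results are therefore also given without these mice.

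Of the 9 genes, 8 passed the filter on low counts, and all 8 were higher in tdTom+ than in tdTom- cells when each mouse was its own control (edgeR's quasi-likelihood test, Benjamini-Hochberg adjusted p under 0.01). The background was large, as 25.8% of the 15323 genes tested were higher and 30.0% were lower in tdTom+ cells by the same rule. A higher level in tdTom+ cells was therefore common among all genes, and the size of each change and its spread over the mice are given for each gene. The median log2 fold change of the 8 genes was 1.64, against 0.02 over all genes tested. It was 1.66 for the enteroendocrine, 7.22 for the goblet, 7.43 for the Paneth and -3.06 for the absorptive markers. Without a block for the mouse 22.7% of all genes were higher, and 7 of the 8 genes passed. Without mice 7 and 8 all 8 genes passed. In bulk libraries a difference in the number of tuft cells and a difference in RNA per tuft cell cannot be told apart.

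**Figure D1:**
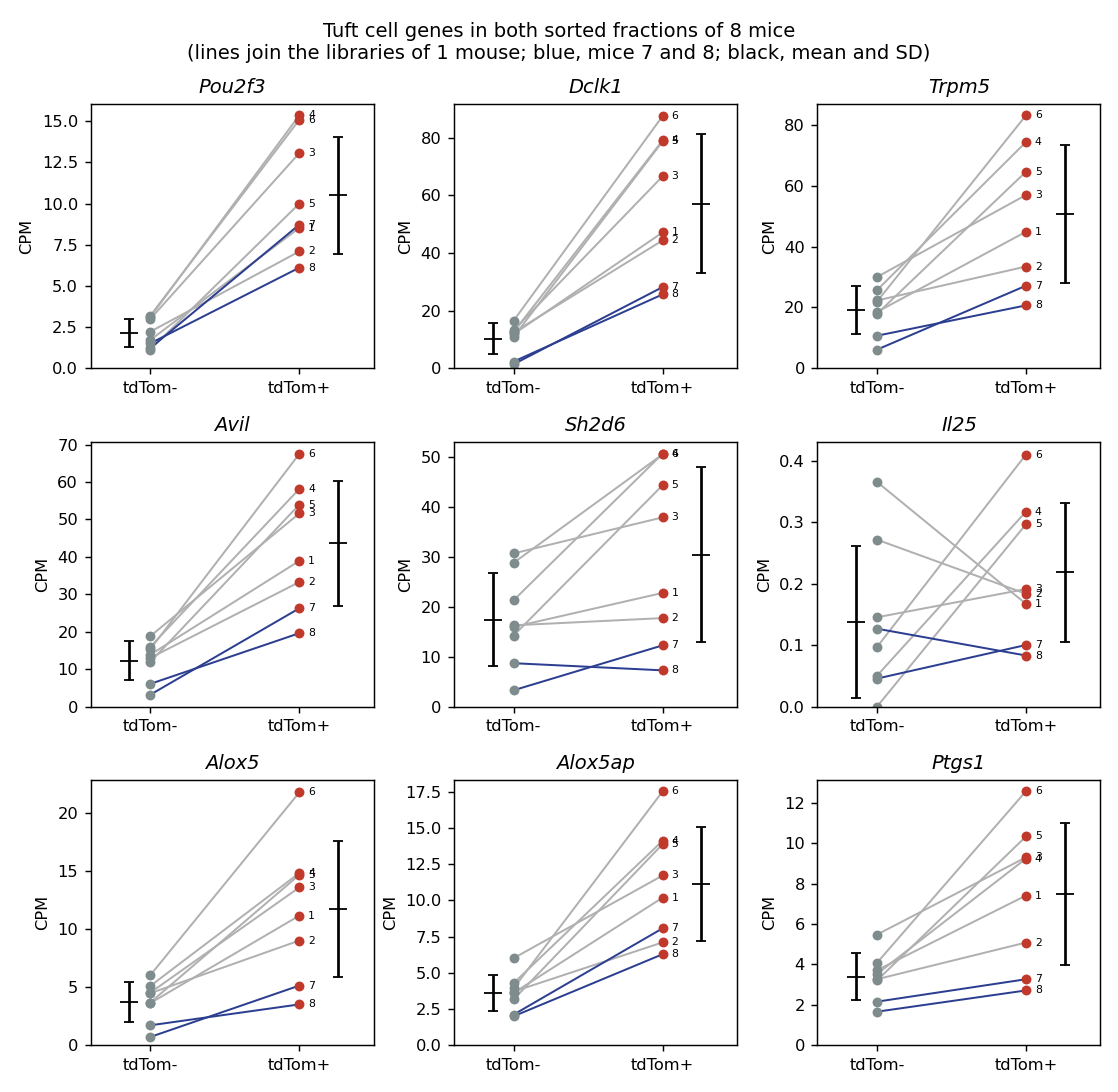
CPM of each gene (vertical axis, from 0) in the tdTom- and tdTom+ library of each of 8 mice, with lines that join the libraries of 1 mouse, mouse numbers at the right and mean and SD in black. Lines rise for all 8 mice in 7 panels, for 7 of 8 mice for *Sh2d6* and for 5 of 8 mice for *Il25*, and the blue lines of mice 7 and 8 lie low in most panels.

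*Pou2f3* (ENSMUSG00000032015, chromosome 9, 43123939 to 43210369, minus strand, GRCm38) encodes the factor that specifies tuft cells. Its level was 1.14 CPM at the lowest, 1.97 CPM at the median and 3.20 CPM at the highest in tdTom- libraries, and 6.11, 9.36 and 15.3 CPM in tdTom+ libraries. No tdTom- library reached the lowest tdTom+ library. The mean rose from 2.14 ± 0.862 to 10.5 ± 3.57 CPM (SD, n = 8 mice), and the log2 fold change was 2.30 ± 0.14 (SE; adjusted p = 3.81e-09). In single mice the log2 ratio lay between 1.63 and 3.03. Its raw counts were modest, 25 to 66 in tdTom- and 116 to 368 in tdTom+ libraries, so counting error adds to the spread of this gene.

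*Dclk1* (ENSMUSG00000027797, chromosome 3, 55242364 to 55539068, plus strand), a microtubule-associated kinase used as the classical tuft cell marker in the mouse intestine, had the largest change of the 9 genes. It lay at 1.46, 12.2 and 16.6 CPM (lowest, median, highest) in tdTom- libraries and at 25.7, 56.9 and 87.5 CPM in tdTom+ libraries. The fractions did not overlap. The mean rose from 10.2 ± 5.37 to 57.2 ± 24.05 CPM (SD, n = 8), and the log2 fold change was 2.60 ± 0.19 (SE; adjusted p = 4.10e-08). The largest ratios came from the mice with the lowest levels, with log2 ratios of 4.18 in mouse 7 and 3.39 in mouse 8 against 1.82 to 2.83 in the other 6 mice. Those ratios rest on 32 and 56 tdTom- counts, and without these mice the log2 fold change of *Dclk1* was 2.35 ± 0.11 (SE).

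*Trpm5* (ENSMUSG00000009246, chromosome 7, 143069153 to 143094642, minus strand) encodes the calcium-activated cation channel at the end of the taste cascade. It was counted at 6.16, 20.2 and 30.0 CPM in tdTom- and at 20.7, 50.9 and 83.1 CPM in tdTom+ libraries. These ranges overlapped, since the tdTom+ library of mouse 8 at 20.7 CPM and that of mouse 7 at 27.2 CPM fell among the tdTom- libraries of other mice, yet *Trpm5* was higher in tdTom+ in 8 of 8 mice. The log2 fold change was 1.39 ± 0.15 (SE; adjusted p = 2.27e-06), and 0.58 to 2.12 in single mice.

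*Avil* (ENSMUSG00000025432, chromosome 10, 127000709 to 127020994, plus strand) encodes advillin, an actin-binding protein of the villin family that is found in the apical bundle of tuft cells. Lowest, median and highest levels were 3.19, 13.5 and 18.8 CPM in tdTom- and 19.6, 45.3 and 67.5 CPM in tdTom+ libraries. The highest tdTom- library thus stayed just below the lowest tdTom+ library. The log2 fold change was 1.87 ± 0.14 (SE; adjusted p = 6.83e-08), with 1.35 to 3.00 in single mice.

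*Sh2d6* (ENSMUSG00000052631, chromosome 6, 72513644 to 72521634, minus strand) encodes an adaptor-like protein with an SH2 domain. It had the smallest change of the genes that could be tested. It was at 3.28, 16.1 and 30.7 CPM in tdTom- and at 7.27, 30.3 and 50.6 CPM in tdTom+ libraries, and the ranges overlapped broadly. Its log2 fold change was 0.77 ± 0.20 (SE; adjusted p = 0.00346), and 7 of 8 mice were higher in tdTom+, with mouse 8 at a log2 ratio of -0.26 as the exception. In TPM, which divides by length and by the sum of all genes, it was higher in 4 of 8 mice. The make-up of that sum differed between the fractions, as given below with the levels per length. Flipping the signs of the 8 mouse ratios in every possible way, an exact permutation test with both tails, gave p = 0.0234 for *Sh2d6*. Its call did not hold without the block (log2 fold change 0.81 ± 0.42, adjusted p = 0.106) nor without mouse 4, 5 or 6 (adjusted p 0.0101, 0.0104 and 0.0113), and its change was the least certain of the 8.

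*Il25* (ENSMUSG00000040770, chromosome 14, 54932695 to 54935837, plus strand), the tuft cell cytokine that activates group 2 innate lymphoid cells, was barely counted. Raw counts were 3, 3, 3, 7, 7, 10, 2 and 2 in the tdTom+ libraries of mice 1 to 8 and 7, 5, 3, 1, 0, 2, 1 and 3 in their tdTom- libraries. The 0 of mouse 5 allows up to 0.137 CPM by the limit of 3 counts, which covers counting error only. The gene was below the filter of the fit. In 5 of 8 mice *Il25* was above the tdTom- library of its pair, the exact sign-flip test gave p = 0.203, and a difference was not detectable at this depth. When genes with low counts were kept, the log2 fold change was 0.73 ± 0.53 (SE; edgeR adjusted p = 0.318).

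*Alox5* encodes 5-lipoxygenase, which makes leukotriene A4 from arachidonic acid, and *Alox5ap* encodes the membrane protein FLAP that presents the fatty acid to it. *Alox5* (ENSMUSG00000025701, chromosome 6, 116410077 to 116461178, minus strand) lay at 0.684, 4.05 and 6.01 CPM in tdTom- and at 3.49, 12.4 and 21.8 CPM in tdTom+ libraries. The overlap came from mice 7 and 8, whose tdTom+ libraries at 5.11 and 3.49 CPM fell below the highest tdTom- library. *Alox5* was higher in 8 of 8 mice, and its log2 fold change was 1.65 ± 0.15 (SE; adjusted p = 3.16e-07).

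*Alox5ap* (ENSMUSG00000060063, chromosome 5, 149265058 to 149288045, plus strand) was at 1.98, 3.65 and 6.002 CPM in tdTom- and at 6.27, 10.96 and 17.5 CPM in tdTom+ libraries, without overlap. Its log2 fold change of 1.63 ± 0.14 (SE; adjusted p = 2.63e-07) stood beside that of *Alox5*, its functional partner. The ratio of their raw counts, *Alox5* to *Alox5ap*, had similar means of 1.01 ± 0.267 (SD, n = 8) in tdTom+ and 1.00 ± 0.363 in tdTom- libraries, but ranged from 0.556 to 1.27 and from 0.326 to 1.53 over the libraries. The count ratio does not allow for exon length, which differs between these genes.

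*Ptgs1* (ENSMUSG00000047250, chromosome 2, 36230426 to 36252272, plus strand) encodes cyclooxygenase 1, the constitutive enzyme at the entry to prostaglandin synthesis. It was at 1.65, 3.39 and 5.47 CPM in tdTom- and at 2.70, 8.32 and 12.6 CPM in tdTom+ libraries. The tdTom+ libraries of mice 2, 7 and 8 lay within the tdTom- range, but each was above the tdTom- library of the same mouse. The log2 fold change was 1.09 ± 0.14 (SE; adjusted p = 1.25e-05). In all, 4 of the 8 genes (*Dclk1*, *Pou2f3*, *Avil* and *Alox5ap*) did not overlap between the fractions, as did 14.6% of all genes tested in this direction, and 7 of the 8 were higher in tdTom+ in 8 of 8 mice, as were 22.9% of all genes tested. For each of those 7 genes the exact sign-flip p was 0.00781, the smallest that 8 mice can give.

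**Figure D2:**
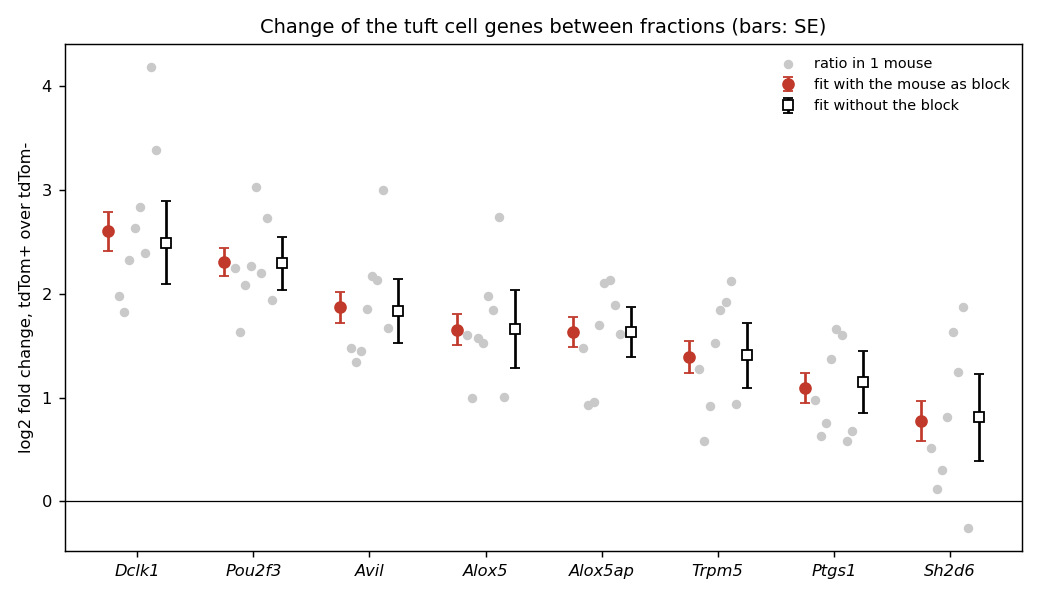
Log2 fold change of tdTom+ over tdTom- for the 8 tested genes (red, fit with the mouse as block; open squares, fit without it; bars, SE) beside the log2 ratio in each mouse (grey). *Dclk1* at 2.60 and *Pou2f3* at 2.30 stand highest, *Sh2d6* at 0.77 lowest, and 1 grey point, mouse 8 for *Sh2d6*, lies below 0.

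The 8 genes did not change by 1 common factor. The change of each gene was compared with that of *Pou2f3* by subtracting the log2 CPM of *Pou2f3* in every library and fitting limma over all other tested genes, with the mouse as block. By this test 94.1% of all genes changed less toward tdTom+ than *Pou2f3* and 2.98% changed more. The same *Pou2f3* values entered every difference, so the counting error of *Pou2f3* is shared by all of them and the tests are not independent. Of the 7 other tuft cell genes, 5 changed less. The difference in log2 change was -1.49 for *Sh2d6*, -1.23 for *Ptgs1*, -0.87 for *Trpm5*, -0.67 for *Alox5ap* and -0.61 for *Alox5* (SE 0.20 each, since limma pooled the spread over all genes; adjusted p from 1.30e-13 to 0.00245). *Avil* at -0.38 (adjusted p = 0.0606) and *Dclk1* at 0.43 (adjusted p = 0.0328) did not pass, each with the same SE. Without the block, *Sh2d6*, *Ptgs1* and *Trpm5* still passed, which makes 3 of 7.

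The genes were also compared by ratios of raw counts within a library, for which scaling plays no part. The count ratio of *Dclk1* to *Trpm5* was 1.15 ± 0.109 in tdTom+ libraries (SD, n = 8), with a range of 1.04 to 1.33, and 0.495 ± 0.190 in tdTom- libraries, with a range of 0.220 to 0.755. These ranges did not overlap. *Avil* to *Trpm5* was 0.889 ± 0.0771 in tdTom+ and 0.629 ± 0.0746 in tdTom- libraries, again without overlap (0.782 to 0.995 against 0.519 to 0.749). *Dclk1* to *Sh2d6* was 2.15 ± 0.641 in tdTom+ and 0.581 ± 0.204 in tdTom- libraries, and 1.56 was the lowest tdTom+ ratio against 0.777 as the highest tdTom- ratio. Counts of *Dclk1* and *Avil* were thus higher relative to *Trpm5*, and those of *Dclk1* relative to *Sh2d6*, in tdTom+ libraries. The part of other cell types in these counts was not tested. The ranges overlapped for *Pou2f3* to *Trpm5* (0.155 to 0.321 in tdTom+ against 0.0638 to 0.200), *Trpm5* to *Sh2d6* (1.46 to 2.85 against 0.892 to 1.88) and *Alox5* to *Ptgs1* (1.29 to 1.77 against 0.319 to 1.48). These ratios are descriptions and carry no test. The pairs were chosen by hand, and the share of all gene pairs without overlap was not computed.

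Levels of different genes were compared per length, as TPM (transcript abundance relative to the library's sum) from the exon length in the files. In tdTom+ cells the order was *Sh2d6* (23.5 ± 14.5 TPM), *Alox5ap* (17.3 ± 7.29), *Avil* (17.1 ± 7.54), *Trpm5* (10.5 ± 5.30), *Pou2f3* (5.07 ± 1.89), *Dclk1* (4.99 ± 2.40), *Alox5* (3.81 ± 2.14), *Ptgs1* (2.58 ± 1.37) and *Il25* (0.275 ± 0.159; TPM, SD, n = 8 each). By TPM, 4 of 8 mice had more *Sh2d6* and 7 of 8 more *Ptgs1* in tdTom+ cells, against 7 and 8 in TMM-scaled CPM. The other 6 tested genes were higher in 8 of 8 mice on both scales. TPM depends on the make-up of the library's sum, which differed between the fractions. Mean TPM was 114543 in tdTom+ against 913 in tdTom- for *Zg16*, and 83881 against 720 for *Defa24*. Such genes leave less of the sum for all other genes in tdTom+ libraries, so the TPM counts are no independent check of the CPM counts. Within tdTom+ libraries *Sh2d6* was above *Alox5ap* in 6 of 8 mice, *Alox5ap* above *Avil* in 5 and *Pou2f3* above *Dclk1* in 5, so these neighbours did not differ beyond their spread. The other neighbours kept the order in 8 of 8 mice, although only the ranges of *Ptgs1* and *Il25* were apart. In tdTom- cells the order was *Sh2d6* (19.2 ± 10.7 TPM), *Alox5ap* (7.98 ± 3.04), *Avil* (6.96 ± 3.28), *Trpm5* (5.72 ± 2.51), *Alox5* (1.78 ± 1.03), *Ptgs1* (1.65 ± 0.655), *Pou2f3* (1.51 ± 0.766), *Dclk1* (1.32 ± 0.803) and *Il25* (0.239 ± 0.217). *Alox5* against *Ptgs1* (4 of 8 mice), *Ptgs1* against *Pou2f3* (5 of 8) and *Pou2f3* against *Dclk1* (6 of 8) did not differ beyond their spread there, and the ranges of all neighbours overlapped. *Pou2f3* and *Dclk1* thus moved from the places just above *Il25* in tdTom- cells to mean levels above both *Alox5* and *Ptgs1* in tdTom+ cells. Per length *Dclk1* stood at a low level for its counts, because its exons in the files sum to 15296 bases, against 1737 for *Sh2d6*. Which of these exons were in use was not examined, so the TPM and the place of *Dclk1* depend on this length. In tdTom+ cells 82.3% of all tested genes lay below *Sh2d6* and 45.8% below *Dclk1* in mean TPM. In tdTom- cells these shares were 69.3% and 16.8%.

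**Figure D3:**
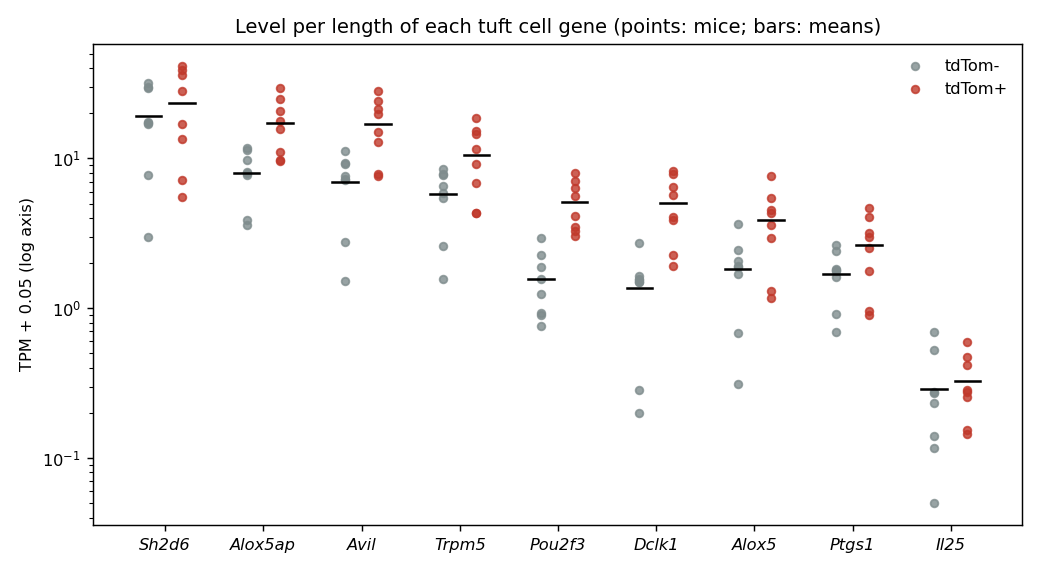
Level per length of the 9 genes, in TPM with 0.05 added on a log axis, in 8 tdTom- (grey) and 8 tdTom+ (red) libraries, with bars at the means. *Sh2d6* is highest in both fractions (19.2 and 23.5 TPM) and *Il25* lowest, and the points of *Pou2f3* and *Dclk1* shift most between fractions.

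The genes rose and fell together from mouse to mouse. After removal of each fraction's mean, the average log2 CPM of the 8 genes deviated by 0.83 in the tdTom+ library of mouse 6, 0.61 in that of mouse 4 and -1.15 in that of mouse 8. Among tdTom- libraries the deviations ran from 0.75 in mouse 3 to -1.46 in mouse 7. Mice 7 and 8 were the lowest in both fractions, at -0.73 and -1.15 in tdTom+ and at -1.46 and -0.86 in tdTom- libraries. Summed over the 9 genes, these mice had 119 and 91.9 CPM in tdTom+ libraries, where the others had 157 to 356 CPM, and 20.3 and 34.8 CPM in tdTom- libraries, where the others had 66.2 to 112 CPM. The higher lymphocyte markers named above were in the tdTom- libraries of the same mice, whereas their tdTom+ libraries, at 9.57 and 28.6 CPM, lay within the 6.63 to 29.9 CPM of the other mice. Summed absorptive markers were also lowest in the tdTom- libraries of mice 7 and 8, at 14550 and 24823 CPM against 27682 to 38346 CPM in the others. In tdTom+ libraries they were lowest in mouse 7, at 1563 CPM, while mouse 8 at 4162 CPM lay within the 2821 to 6021 CPM of the others. The part of these differences in the low tuft cell counts was not tested.

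**Figure D4:**
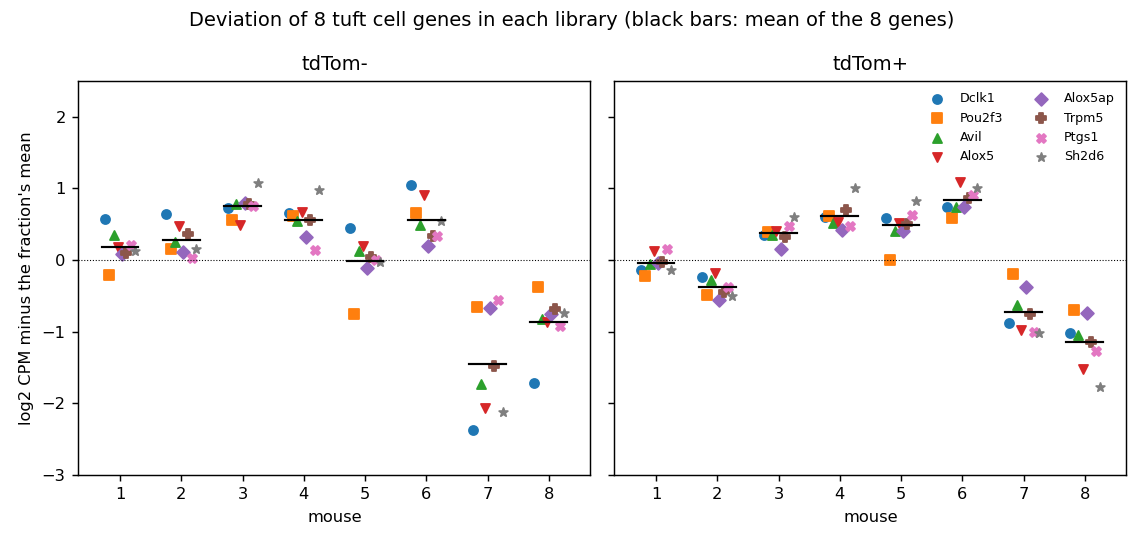
Deviation of each of 8 genes from its fraction's mean (vertical axis, log2 CPM) in the libraries of mice 1 to 8, with a black bar at the mean of the genes. The bars of mice 7 and 8 are lowest in both panels (-1.46 and -0.86 in tdTom-, -0.73 and -1.15 in tdTom+), and *Pou2f3* is the gene nearest to 0 in 3 of these 4 libraries.

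Each gene's deviations were correlated with the mean deviations of the other 7, over 16 libraries that share mice, depth and scaling. Pearson's r was 0.990 for *Trpm5*, 0.984 for *Avil*, 0.976 for *Sh2d6*, 0.965 for *Alox5*, 0.932 for *Alox5ap*, 0.918 for *Dclk1*, 0.888 for *Ptgs1* and 0.796 for *Pou2f3*. Without mice 7 and 8 it remained between 0.768 (*Dclk1*) and 0.968 (*Avil*). *Pou2f3* followed the others least over all 16 libraries, but without mice 7 and 8 its r was 0.825, above that of *Dclk1*. Its SD in log2 CPM was 0.49 in tdTom+ libraries, against 0.52 for *Alox5ap* and 1.04 for *Sh2d6*. In tdTom- libraries its SD was 0.58, above the 0.51 of *Alox5ap* and the 0.52 of *Ptgs1*. In mouse 5 the tdTom- library had *Pou2f3* at its lowest, 1.14 CPM from 25 counts, while *Dclk1* at 10.96 CPM and *Trpm5* at 17.9 CPM were near their medians.

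Of 13944 other genes with a mean of at least 1 CPM, the 10 whose deviations were most like the mean of the 8 genes included *Lrmp* (r = 0.984), *Spib* (0.982), *Bmx* (0.979), *Pik3r5* (0.978), *Sh2d7* (0.973), *Strip2* (0.973), *Siglecf* (0.972), *Il15* (0.965) and *Gprc5c* (0.953). The median r over all ranked genes was -0.03, and 41 genes reached at least 0.9. For the absorptive markers r lay between 0.444 (*Sis*) and 0.702 (*Lct*), and for the proliferation markers between -0.567 (*Mcm5*) and -0.356 (*Mki67*). *Bmx*, *Pik3r5* and *Sh2d7* encode a Tec-family kinase, a regulatory subunit of a phosphoinositide 3-kinase and an SH2 adaptor, and *Spib* encodes an ETS transcription factor. Of the 10 genes, 9 were higher in tdTom+ cells, as were 25.8% of all genes tested, from 0.71 ± 0.17 (*Siglecf*) to 1.90 ± 0.15 (*Spib*) in log2 fold change (SE). *Siglecf* did not pass without the block (adjusted p = 0.134). *Il15*, which encodes a cytokine that acts on intraepithelial lymphocytes, was the exception. It fell from 22.1 CPM in tdTom- to 2.49 CPM in tdTom+ cells, with a log2 fold change of -3.10 ± 0.12, although it followed the tuft cell genes from mouse to mouse within each fraction. Without mice 7 and 8 its r was 0.90 and its rank fell from 9 to 15. Of the 10 genes 8 were again among the 10 most alike, and *Il15* and *Gprc5c* were not.

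The genes related to the 9 by sequence family were mixed. Of 25 relatives in the files, 13 passed the filter, 5 were higher and 5 lower in tdTom+ cells (median log2 fold change -0.34). *Dclk2* rose by a log2 fold change of 2.43 ± 0.21, from 0.600 to 3.27 CPM. Actin-binding relatives of *Avil* moved in both directions, *Vill* by 5.39 ± 0.13 and *Gsn* by 3.32 ± 0.12 upward, and the brush border gene *Vil1* by -1.42 ± 0.08. *Sh2d7* rose by 1.87 ± 0.17 to 29.4 CPM. Its r with the tuft cell genes from mouse to mouse was 0.973, against 0.523 for *Dclk2*, 0.254 for *Vill* and -0.128 for *Gsn*. The microsomal glutathione transferase genes *Mgst2* and *Mgst3* were lower, by -1.32 ± 0.06 and -0.62 ± 0.07. *Trpm4*, the channel closest to *Trpm5*, was lower at -0.34 ± 0.07 (adjusted p = 0.00125, and 0.0144 without the block). *Pou2f1* did not pass, with 18.8 CPM in tdTom+ against 17.8 CPM (adjusted p = 0.413). *Ptgs2*, the inducible cyclooxygenase, was at 0.516 and 1.14 CPM and did not pass either (adjusted p = 0.0409).

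The list of chemosensory transduction genes held genes of the taste cascade other than *Trpm5* and also receptors of metabolites and of GABA. Of its 16 genes in the files 10 passed the filter, with 6 higher and 1 lower (median log2 fold change 0.52). Without the block 4 were higher and none lower. *Plcb2*, the phospholipase of the cascade, rose by 1.89 ± 0.13 from 3.21 to 12.2 CPM. The short-chain fatty acid receptor gene *Ffar2* rose by 3.40 ± 0.14 from 1.72 to 18.1 CPM, and the GABA receptor subunit gene *Gabbr1* by 1.82 ± 0.16. *Ffar3*, a further short-chain fatty acid receptor gene, rose by 1.01 ± 0.21 (adjusted p = 0.000901, and 0.0197 without the block), and *Trpm4* was the lower gene. *Itpr3*, the calcium release channel gene, rose by 0.44 ± 0.07 and had 260 CPM in tdTom+ cells. From mouse to mouse, r with the tuft cell genes was 0.912 for *Ffar3*, 0.872 for *Plcb2* and 0.657 for *Gabbr1*. It was -0.088 for *Ffar2* and -0.431 for *Itpr3*. *Gnat3* and *Gng13*, the gustatory G protein subunits, were below the filter with means of 0.774 and 0.954 CPM in tdTom+ against 0.252 and 0.0479 CPM in tdTom- libraries. The succinate receptor gene *Sucnr1*, at 0.729 and 0.648 CPM, did not pass (adjusted p = 0.515).

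Among other regulators and signalling genes of tuft cells, 25 of 29 were higher and 1 was lower in tdTom+ cells (median log2 fold change 1.44), and without the block 22 were higher and none lower. The largest changes were those of *Hepacam2* (4.69 ± 0.07), *Rgs2* (3.85 ± 0.15), *Krt18* (2.72 ± 0.08) and *Cd24a* (2.60 ± 0.05). They did not follow the tuft cell genes from mouse to mouse (r = 0.181 for *Hepacam2*, -0.268 for *Rgs2*, -0.383 for *Krt18* and -0.213 for *Cd24a*). These genes are also expressed by other secretory cells, and the part of such cells in the changes was not tested. *Rgs13* rose by 2.17 ± 0.22 and did follow them (r = 0.933). The repressor gene *Gfi1b* rose by 1.86 ± 0.26, from 0.391 to 1.43 CPM. *Chat*, which encodes the acetylcholine-making enzyme of tuft cells, did not pass, with 0.825 CPM in tdTom+ against 0.534 CPM (adjusted p = 0.176), nor did *Ptpn18* and *Matk*. *1810046K07Rik* was lower, by -0.60 ± 0.15 (adjusted p = 0.00284, and 0.0196 without the block).

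Other eicosanoid genes moved in both directions. Of 26 further genes of eicosanoid synthesis and breakdown, 20 passed the filter, with 6 higher and 10 lower in tdTom+ cells (median log2 fold change -0.76). Of the phospholipase A2 genes, whose enzymes release fatty acids such as arachidonic acid, 3 were higher and 2 lower. *Pla2g4a* rose by 1.22 ± 0.12 and *Pla2g5* by 1.31 ± 0.16 (adjusted p = 6.68e-06 with the block and 0.0532 without it). *Pla2g10* rose by 7.37 ± 0.17, from 0.294 to 49.4 CPM. That change was near the medians of the goblet (7.22) and Paneth (7.43) markers, and its r with the tuft cell genes from mouse to mouse was -0.016. Which cells the *Pla2g10* counts came from was not tested. *Pla2g6* was lower by -0.89 ± 0.10, with 24.5 CPM in tdTom+ against 46.3 CPM, and *Pla2g4c* by -1.06 ± 0.23. *Hpgds*, the prostaglandin D2 synthase of hematopoietic cells and tuft cells, rose by 1.98 ± 0.14 from 1.17 to 4.66 CPM. The export pump genes *Abcc4* and *Abcc1* rose by 2.27 ± 0.10 and 1.22 ± 0.10. The enzymes that act directly on leukotriene A4 were lower, *Ltc4s* by -1.24 ± 0.16 (11.1 to 4.61 CPM) and *Lta4h* by -1.44 ± 0.06 (236 to 87.8 CPM). *Ggt1* at -3.50 ± 0.12 and *Dpep1* at -3.20 ± 0.11, peptidases that convert cysteinyl leukotrienes, had the largest falls, and *Cbr1* fell by 1.99 on the log2 scale. *Ltc4s* nevertheless followed the tuft cell genes from mouse to mouse within the fractions (r = 0.885).

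Of 14 eicosanoid receptor genes only 5 passed the filter, and all 5 passed the test. Prostaglandin receptors were higher in tdTom+ cells, *Ptgdr* by 7.09 ± 0.16 (0.165 to 23.5 CPM), *Ptger3* by 2.47 ± 0.30 and *Ptger4* by 1.73 ± 0.08. From mouse to mouse, r with the tuft cell genes was 0.214 for *Ptgdr* and -0.226 for *Ptger4*. The leukotriene B4 receptors *Ltb4r1* and *Ltb4r2* were lower by -2.50 ± 0.12 and -2.47 ± 0.08. The cysteinyl leukotriene receptor genes *Cysltr1* and *Cysltr2* had means of 0.119 CPM or less in either fraction, and *Oxgr1* was at 0 in every library.

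**Figure D5:**
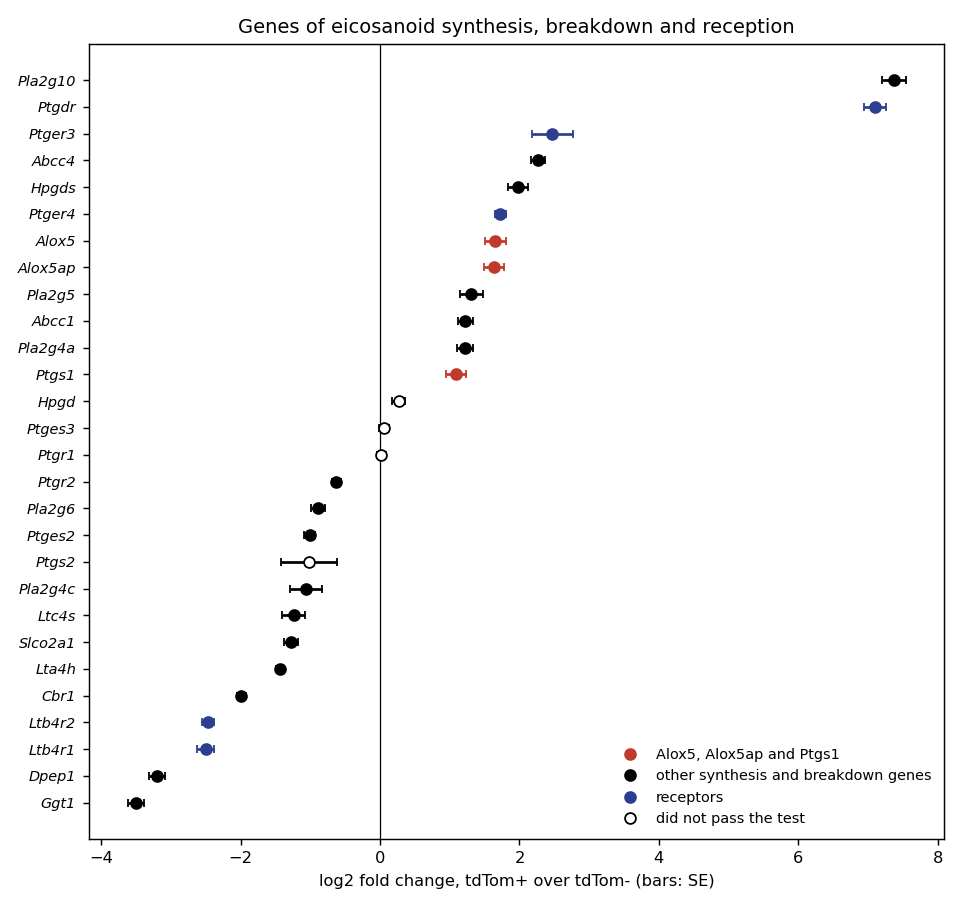
Log2 fold change of tdTom+ over tdTom- (horizontal axis, bars SE) for eicosanoid genes that passed the filter, with *Alox5*, *Alox5ap* and *Ptgs1* in red, receptors in blue, other synthesis and breakdown genes in black and open circles for genes that did not pass the test. The red points lie between 1.09 and 1.65, while *Ltc4s* and *Lta4h* lie at -1.24 and -1.44.

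Of 11 tested genes of the interleukin 25 and type 2 response of the epithelium, 0 were higher and 4 lower by edgeR (median log2 fold change -0.18). At an unadjusted p under 0.05 again 0 were higher and 4 lower, and DESeq2 called 0 higher and 3 lower. *Il17rb*, the receptor chain of interleukin 25 that tuft cells also express, had similar means of 4.09 ± 1.91 CPM in tdTom+ against 3.99 ± 1.39 CPM (SD, n = 8; log2 fold change -0.01 ± 0.13 SE, adjusted p = 0.947), yet its deviations followed those of the tuft cell genes (r = 0.916). The lower genes were *Socs3* (-0.76 ± 0.17), *Stat6* (-0.38 ± 0.05), *Tyk2* (-0.32 ± 0.06) and *Jak3* (-0.30 ± 0.09, adjusted p = 0.00847, and 0.162 without the block). The receptor chain genes *Il4ra* and *Il13ra1* did not pass (adjusted p 0.266 and 0.686). *Retnlb*, a goblet cell gene of the type 2 response, was below the filter, with 6 to 43 counts in tdTom+ and 0 to 1 in tdTom- libraries, and was higher in tdTom+ in 8 of 8 mice. *Il5*, *Il13* and *Il13ra2* were at 0 in every library.

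*Alox5*, *Alox5ap* and *Ptgs1* are also expressed by leukocytes, so leukocyte markers are given beside them. Of 10 lymphocyte markers 8 were tested, and 6 were lower and none higher in tdTom+ cells (4 lower without the block, and by DESeq2 6 lower and 0 higher). *Ptprc*, the common leukocyte antigen gene, did not pass, with 3.07 CPM in tdTom+ against 6.23 CPM (adjusted p = 0.0405). Of 12 markers of myeloid and mast cells 4 were tested, with 3 lower and *Lyz2* higher. *Lyz2*, at 2406 CPM in tdTom+ cells, is close in sequence to the Paneth cell lysozyme gene *Lyz1*, so its counts are uncertain. *Csf1r* and *Tyrobp* were at 0.0677 and 0.210 CPM in tdTom+ and at 1.09 and 1.27 CPM in tdTom- cells. The leukocyte markers other than *Lyz2* that passed the test were therefore lower in the fraction where the 3 eicosanoid genes were higher. The part of leukocyte RNA in the counts of *Alox5*, *Alox5ap* and *Ptgs1* was not tested.

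Promoter windows from RefSeq (GRCm38.p6; 250 bases before to 50 after a start site) existed for *Dclk1* (2 start sites), *Trpm5*, *Avil*, *Alox5*, *Ptgs1* and *Sh2d6*, which is 6 of the 9 genes and 7 windows. The windows were searched on both strands for the octamer ATGCAAAT, the site of POU2 factors such as the protein of *Pou2f3*, and for the E-boxes CAGCTG and CAGATG, of the kind that factors such as ATOH1 recognise. None of the 7 windows held any of the 3 motifs, whereas 1.74%, 16.3% and 17.2% of all 32851 windows held them. That says only that these letters are not in these windows. The 250 bases before the start are shown for *Dclk1* (both start sites, the latter inside the gene), *Avil* and *Trpm5*, whose count ratios did not overlap between the fractions, on the strand of the gene and in lower case throughout, since no motif was found to be set in capitals.
Dclk1, chr3:55242114-55242363, plus strand: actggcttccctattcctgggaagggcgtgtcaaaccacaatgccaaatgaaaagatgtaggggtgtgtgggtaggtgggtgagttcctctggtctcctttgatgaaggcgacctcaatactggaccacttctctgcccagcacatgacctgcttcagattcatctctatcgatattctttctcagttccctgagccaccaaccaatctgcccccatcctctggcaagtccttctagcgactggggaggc
Dclk1, chr3:55461478-55461727, plus strand: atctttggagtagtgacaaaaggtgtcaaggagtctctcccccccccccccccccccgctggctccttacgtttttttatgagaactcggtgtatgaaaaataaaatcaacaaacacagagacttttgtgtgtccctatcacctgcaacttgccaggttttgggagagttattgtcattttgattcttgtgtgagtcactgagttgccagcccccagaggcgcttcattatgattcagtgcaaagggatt
Avil, chr10:127000459-127000708, plus strand: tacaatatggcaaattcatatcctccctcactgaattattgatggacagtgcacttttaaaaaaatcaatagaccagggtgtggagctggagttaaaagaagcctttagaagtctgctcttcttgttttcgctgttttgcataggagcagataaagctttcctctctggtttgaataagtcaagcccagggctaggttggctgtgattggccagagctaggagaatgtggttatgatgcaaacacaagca
Trpm5, chr7:143094643-143094892, minus strand: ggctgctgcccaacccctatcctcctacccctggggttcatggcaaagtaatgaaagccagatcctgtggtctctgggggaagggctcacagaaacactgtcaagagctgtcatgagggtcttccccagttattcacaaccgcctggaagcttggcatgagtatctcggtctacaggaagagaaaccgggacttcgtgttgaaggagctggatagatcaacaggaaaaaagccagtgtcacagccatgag
The reads were summed over all exons of a gene, so the counts do not show which *Dclk1* start was used in either fraction.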

How the data were processed

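RNA of EpCAM+ tdTom+ and tdTom- cells was purified with the RNeasy Micro Plus kit and sequenced as TruSeq Stranded mRNA libraries. The authors aligned the reads to GRCm38 with TopHat2 (2.1.1 per the submitters' processing notes), and what they deposited are raw read counts of Ensembl genes from featureCounts, per the file headers on the reverse strand, from primary alignments and without reads that overlap several genes. Symbols were matched for 44585 of 45513 identifiers. Overlapping genes on the opposite strand (at *Dclk1*, *Trpm5*, *Avil* and *Alox5ap*) are kept apart by the strand, and no exon base of the 9 genes was shared on the same strand.

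Counts were analysed in R 4.3.3 with edgeR 4.0.16. Genes passed by filterByExpr (15323) were scaled by TMM and tested by the quasi-likelihood F-test with the mouse as block, Benjamini-Hochberg adjustment over all genes tested and a threshold of 0.01. SEs were derived from each fold change and its F statistic. The mouse number stands in both titles and the design states that each mouse gave both fractions. Same-numbered libraries deviated together (correlation across genes 0.245 to 0.634, mean 0.426, against a mean of -0.0569 between different mice). P-values measure the spread between these mice, except those of the differences from *Pou2f3*, which rest on a spread pooled over all genes. Levels are TMM-scaled CPM, log2 values of single libraries have a prior count of 2, and TPM was computed from the exon lengths in the files. Differences from *Pou2f3* were fitted with limma 3.58.1. Single genes were also tested by an exact sign-flip test. The scripts were tested on simulated counts.

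The 9 genes, the gene lists and the tests were chosen with earlier results of these data known. All 9 genes were named, and of each other list the counts and at most 4 genes per direction with the largest change and at least 1 CPM in the higher fraction, and those of highest TPM. Other listed genes are named for their role and were chosen after their values were seen. *Gm684* of the list of tuft cell regulators was not matched. Of the 10 genes most like the 9 between mice, 1 is not reported here by name. Alternatives were no replicate block, other scalings (relative log expression, total counts, TMM without the 10 most counted genes), DESeq2 1.42.0, limma-voom, other filters and thresholds, thinning to the smallest total, leaving out each mouse, and, chosen after seeing the data, leaving out mice 7 and 8 together.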

Additional observations from a re-analysis of the deposited data

How the results depend on the processing

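The direction of change of the 8 tested tuft cell genes was the same under every alternative run, and all calls held except that of *Sh2d6*. Without the replicate block 7 of the 8 genes passed in edgeR and in DESeq2, and *Sh2d6* gave log2 fold changes of 0.81 (adjusted p = 0.106) and 0.81 (adjusted p = 0.135). Leaving out each mouse gave 7 or 8 genes that passed and log2 fold changes of *Sh2d6* from 0.64 to 0.96, which missed the threshold without mouse 4, 5 or 6. Where calls also had to reach an absolute log2 change of 1, 3498 genes were called, 1740 of them higher in tdTom+ cells, against 8556 and 3956 without it, and 7 of the 8 genes passed. The number of genes that changed less than *Pou2f3* fell from 5 to 3 without the block. Of the 10 genes most like the tuft cell genes between mice, 6 were again among the 10 with Spearman's rho and 5 within tdTom- libraries alone, and 7 to 9 under the other settings. The median log2 fold change of all genes moved from 0.02 to 0.12 when at least 10 counts were required in every library and without mouse 3. Depth limited *Il25*, with at most 10 counts in a library. Sequencing batches are not given in the labels.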
